A study of Homo sapiens with 5 samples.

Results

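The genes described here are the protein parts of the spliceosome and the RNA-binding proteins around it, in BT474 cells that were left after lapatinib and in untreated BT474 cells. Members were all genes of the deposited expression table whose symbol begins with SNRP or HNRNP, or with SF3A, SF3B, SRSF, LSM or PRPF followed by a number. The rule found 82 rows for 80 gene symbols, out of 18512 symbols in the table, and 78 of the 80 were covered by the authors' test. The rule uses gene symbols alone, though the set was proposed with earlier results of these data known. They fall into 7 classes, which are 7 proteins of the Sm ring, 4 proteins particular to the U1 or U2 particle, 8 SF3A and SF3B subunits, 13 LSM proteins, 13 PRPF factors, 12 SR proteins and 23 hnRNPs. The members SNRPN and SF3A1 were not analysed here.

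BT474 is an established luminal breast cancer line with amplified ERBB2, the gene of the HER2 receptor. Persister cells had been kept for 9 days in lapatinib at 2 µM, with fresh drug every 3 days from 75% confluence on, and parental cells had grown in parallel with the same 0.01% of DMSO and no drug. Lapatinib blocks the kinase activity of HER2 and of EGFR. Polyadenylated RNA from 2 parental and 3 persister cultures of this single line, named biological replicates by the submitters, was sequenced without keeping strand. The table gives 1 value per gene and group in FPKM, a fragment density corrected for transcript length and sequencing depth, so no spread between libraries can be shown and no p-value was computed here.

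Most human genes are interrupted by introns, which the spliceosome removes from the transcript. Its small nuclear ribonucleoproteins (snRNPs) are built from a small nuclear RNA, a ring of 7 Sm or LSM proteins that closes around that RNA, and proteins particular to each snRNP. SR proteins generally bind exons and recruit the spliceosome, and hnRNPs coat the transcript and often oppose or redirect the choice of splice sites, so that the balance between both families shapes alternative splicing.

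Most of these genes were lower in persister than in parental cells. Under the call used throughout, a q-value under 0.05 in the authors' deposited table, 51 of the 78 tested members were lower, 5 were higher and 22 were not called. That is 65.4% lower, against 39% of all 13617 tested genes, and 6.41% higher, against 30.9% of all tested genes. So many genes passed this threshold (69.9% in either direction) that the size of a difference says more than the call alone. Differences are given as log2(FPKM + 1) of persister minus parental cells. At least 0.5 lower on this scale were 33 called members, and 1 was at least 0.5 higher, against 19.4% and 11.8% of all tested genes. The members' summed FPKM went from 5417 in parental to 3904 in persister cells.

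Abundant genes as a whole had lower values in persister cells, and this bears on every count given here. Splicing genes are abundant: 37 of the 78 tested members lay in the top 10% of tested genes by mean FPKM. Of all genes in that top 10%, 68.8% were called lower, with a median difference of -0.42, and of the members in it 27 of 37 were called lower. In the next 10%, 59.5% of all genes and 12 of 18 members were called lower. The members' count of lower calls is therefore close to that of other genes at the same level. Higher calls were rarer among members, with 2 of 37 in the top 10%, against 13.8% of all genes there. In the next 10% they were 0 of 18, against 18.8%. The median difference over the 78 members was -0.38, and -0.11 when each was set against the median of its own decile of mean FPKM. The summed FPKM of the whole table was also smaller in persister cells (260213 against 333324, a log2 ratio of -0.36), and the authors' scaling between groups was not given in the sources used here. Over the 10160 tested genes with at least 1 FPKM in both groups the median difference was -0.12, and 0.22 after both groups were scaled to the same sum. On that equal-sum scale the members' median was -0.04, with 41 of 78 values below 0 and 37 above. Of all 13617 tested genes, 4591 had values below 0 on that scale and 9026 above, so the members still leaned lower than tested genes as a whole. The part of this scaling in the differences was not tested, so the classes are compared below with each other and with the median of expressed genes, meaning those 10160.

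**Figure D1:**
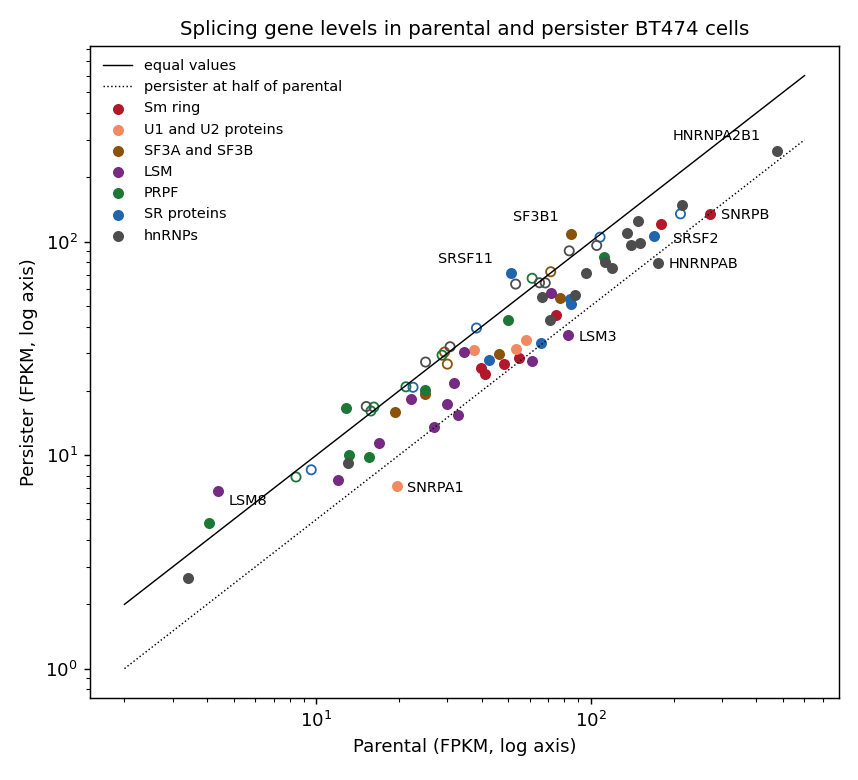
FPKM of 78 of the members in parental cells (x axis, log scale) and persister cells (y axis, log scale), with 1 point per gene coloured by class. Filled points are genes called in the authors' deposited table and open points are not called or have no estimate. Members under 2 FPKM in parental cells are left out. Most points lie below the line of equal values, with SNRPA1, LSM3 and HNRNPAB among those below the dotted line at 0.5 of the parental value, while LSM8, SF3B1 and SRSF11 lie above the line of equal values.

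The classes differed in how far they moved. The core snRNP proteins (Sm ring with the U1 and U2 proteins) had a median difference of -0.75, with all 11 called lower. The LSM proteins had a median of -0.53, the SR proteins of -0.59 and the hnRNPs of -0.36. Close to no difference were the SF3A and SF3B subunits, whose median of -0.21 became 0.13 on the equal-sum scale, and the PRPF factors, whose median of -0.02 became 0.33 there. Relative to the median of expressed genes, the order was Sm ring -0.64, U1 and U2 proteins -0.63, SR proteins -0.48, LSM proteins -0.41, hnRNPs -0.25, SF3A and SF3B -0.09 and PRPF 0.09.

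**Figure D2:**
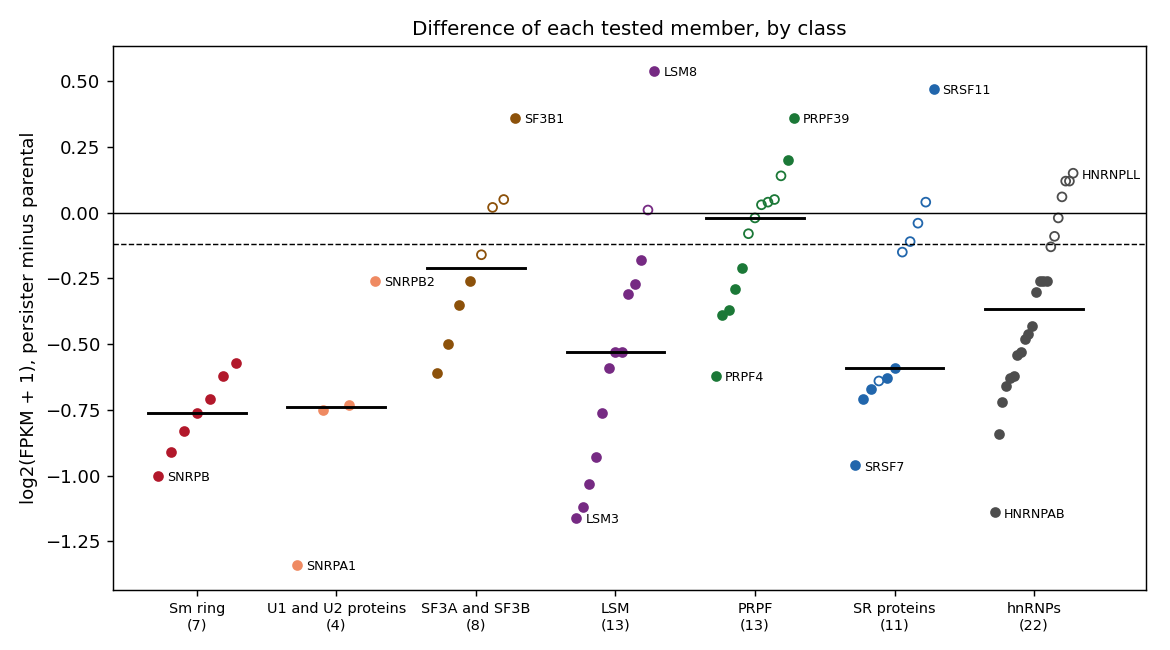
Difference in log2(FPKM + 1), persister minus parental, for each of the 78 tested members (1 point per gene, filled where called in the authors' deposited table), ordered by value within its class. Thick bars are class medians, the solid line is 0 and the dashed line is the median of the 10160 tested genes with at least 1 FPKM in both groups, at -0.12. All 11 core snRNP points lie below the dashed line, whereas the PRPF points spread around 0. On the equal-sum scale the median of SF3A and SF3B (0.13) and that of PRPF (0.33) lie above 0, beside 0.22 for the 10160 genes.

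The Sm ring carries the spliceosomal small nuclear RNAs U1, U2, U4 and U5, and its 7 proteins are made by SNRPB, SNRPD1, SNRPD2, SNRPD3, SNRPE, SNRPF and SNRPG. All 7 were lower in persister cells, within a narrow range of 1.49-fold to 2.01-fold. SNRPB, which makes the SmB and SmB' proteins and had the highest level of the ring, was at 272 FPKM in parental and 135 in persister cells. SNRPD2 stood at 180 and 121 FPKM, and it moved the least of the ring. SNRPF went from 54.6 to 28.6 FPKM, and SNRPG from 48.3 to 26.7. SNRPD1 went from 41.2 to 23.9 FPKM. SNRPD3 was at 74.9 against 45.4 FPKM, and SNRPE at 39.7 against 25.5. The authors' deposited table lists a q-value of 0 for SNRPB, SNRPF, SNRPG, SNRPD1 and SNRPD3, 3.53e-14 for SNRPE and 4.18e-14 for SNRPD2. Together the ring's summed FPKM fell from 710 to 406. All 7 also remained below 0 on the equal-sum scale (median -0.42) and below the median of genes at their own level (median -0.46).

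The proteins particular to U1 and U2 were less uniform. SNRPA1 (the U2 A' protein) had the deepest fall of all members, from 19.6 FPKM in parental to 7.15 in persister cells (difference -1.34, 2.74-fold lower). Transcripts of SNRPA1 share 40.8% of their 31-base stretches with other annotated genes, most of them with 1 entry (33.5%), so reads could be split between them. The U1 proteins SNRPA and SNRPC fell by similar amounts, from 53.3 to 31.3 and from 58.1 to 34.6 FPKM. SNRNP70, the other U1-specific protein, lies outside the member families and was called higher (83.3 and 103 FPKM). SNRPB2, the U2 B'' protein and partner of U2 A', went only from 37.6 to 31.1 FPKM (difference -0.26). The authors' deposited table gives q = 0 for SNRPA1, SNRPA and SNRPC and q = 0.0089 for SNRPB2. SNRPB2 was the exception among the 11 core genes, since its difference was 0.08 on the equal-sum scale and 0.03 against genes of its own level. The U2 pair thus held both the deepest and the shallowest fall of the core.

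**Figure D3:**
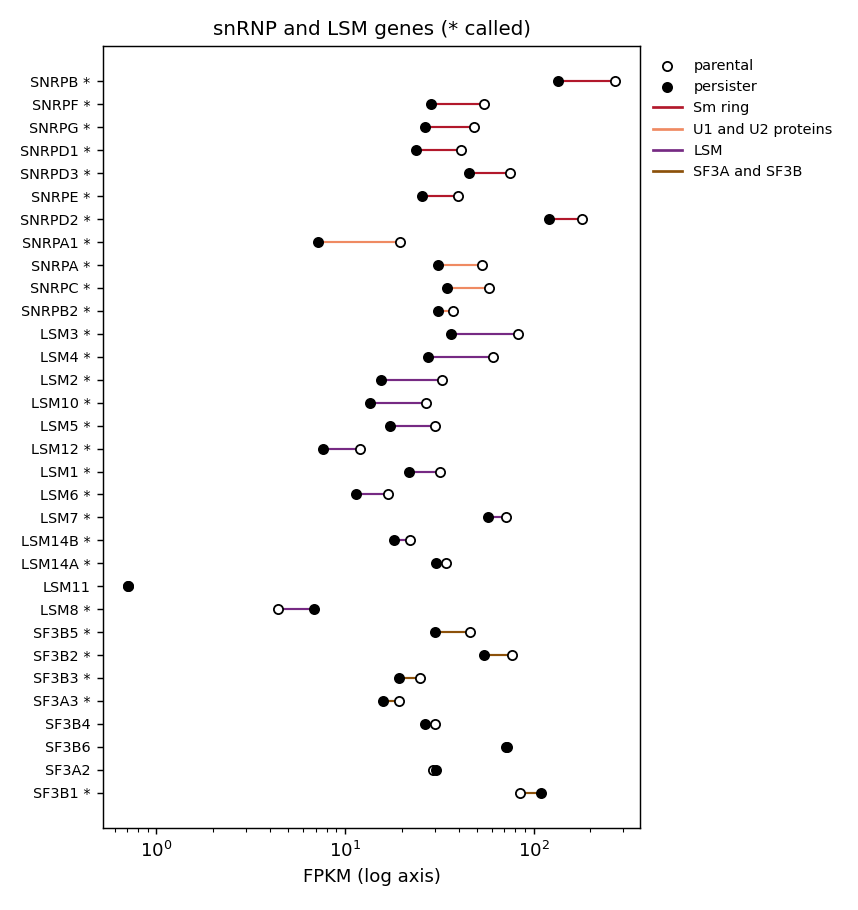
FPKM (log axis) of the Sm ring, U1 and U2, LSM, and SF3A and SF3B genes, 1 gene per line, with open points for parental and filled points for persister cells. An asterisk marks genes called in the authors' deposited table. For all 11 core snRNP genes the filled point lies to the left of the open one, the only called points that lie to the right are LSM8 and SF3B1, and LSM11 lies near 0.7 FPKM in both groups.

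Promoter sequence is shown for these 3 genes because they span the core's range of change while sharing a short element. Sequences are from RefSeq (GRCh38.p14), which held an entry for 69 of the 80 members, and each is printed 5' to 3' on the gene's strand from 250 bases before the start site to the first base that belongs to an exon of the same gene. Capitals mark CCGGAAG, a form of the binding element of ETS transcription factors, on either strand (CTTCCGG is its reverse complement). SNRPA1 lies at chr15:101295283-101295498, minus strand, SNRPC at chr6:34757255-34757405, plus strand, and SNRPB2 at chr20:16729776-16729960, plus strand.
SNRPA1: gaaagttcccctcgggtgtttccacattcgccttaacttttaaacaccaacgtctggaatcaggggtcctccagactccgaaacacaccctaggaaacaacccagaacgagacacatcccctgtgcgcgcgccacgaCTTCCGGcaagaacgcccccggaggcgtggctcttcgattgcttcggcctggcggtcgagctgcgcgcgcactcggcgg
SNRPC: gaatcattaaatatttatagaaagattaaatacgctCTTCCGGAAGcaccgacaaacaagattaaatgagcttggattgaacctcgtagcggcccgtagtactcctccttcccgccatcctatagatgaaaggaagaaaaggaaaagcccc
SNRPB2: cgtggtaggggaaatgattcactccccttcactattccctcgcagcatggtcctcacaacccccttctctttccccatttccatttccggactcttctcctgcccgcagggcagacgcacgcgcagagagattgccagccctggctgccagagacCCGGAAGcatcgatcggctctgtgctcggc
In SNRPA1 the match starts 113 bases before the start site, and in SNRPB2 it starts 95 bases before it. SNRPC has a match on each strand, starting 214 and 211 bases before the start site and overlapping each other. In the 250 bases upstream, 7 of 10 core snRNP genes with an entry held the element, against 17.6% of 10462 tested genes and 8.52% of all 35116 promoters in the collection. SNRPA1, which fell the most, and SNRPB2, which fell the least, both held it. A match is a description of the sequence and says nothing of the factor's binding.

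SF3A and SF3B are the complexes of the U2 snRNP that grip the branch point of the intron. Their 8 subunits did not move as a block: 4 were called lower, 1 higher and 3 were not called, and 50% lower is not far from the 39% of all genes. In the decile of mean FPKM from 23.1 to 43.3, 59.5% of all genes were called lower. The class medians were 38.1 FPKM in parental and 30.1 in persister cells. SF3B1, the large subunit that contacts the branch point and is recurrently mutated in blood cancers, was at 84.6 FPKM in parental and 109 in persister cells (difference 0.36), and the authors' deposited table gives q = 0.0247. SF3B6, which sits at the branch point on SF3B1, was level at 71.4 and 72.3 FPKM, and SF3A2 at 29.3 and 30.4. SF3B5, a small subunit, fell from 46.1 to 29.9 FPKM, and SF3B2 fell from 77.1 to 54.4. SF3B3 was at 24.9 and 19.3 FPKM and SF3A3 at 19.3 and 15.9, both called lower, though SF3A3 was 0.08 higher on the equal-sum scale. SF3B4 stood at 30 and 26.7 FPKM, with q = 0.0584 in the authors' deposited table. Subunits of one complex thus ran in different directions, and the summed FPKM of the class was 383 in parental and 358 in persister cells.

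The ETS element was as frequent here as in the core, in 5 of 7 SF3A and SF3B promoters with an entry, although most of these genes moved little. SF3B6 (chr2:24076444-24076576, minus strand) is printed as the example with no change in level.
SF3B6: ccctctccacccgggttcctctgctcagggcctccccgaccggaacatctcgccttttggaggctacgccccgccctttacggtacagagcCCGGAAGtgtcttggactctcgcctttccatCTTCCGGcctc
Its matches start 159 and 128 bases before the start site, on opposite strands. Over all members, 12 of 45 called lower (26.7%) and 9 of 22 called higher or not called (40.9%) held the element, so its presence did not go with lower calls.

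LSM proteins form rings like those of the Sm family. LSM2 to LSM8 sit on U6 RNA in the nucleus, while LSM1 replaces LSM8 in a cytoplasmic ring that promotes decapping and decay of mRNA. Of the 13 LSM genes, 11 were called lower (84.6%, against 39% of all tested genes), 1 higher (7.69%, against 30.9%) and 1 was not called. LSM3 was at 82.4 FPKM in parental and 36.4 in persister cells (difference -1.16), LSM4 at 61 and 27.6 (-1.12), and LSM2 at 32.7 and 15.5 (-1.03). These 3 subunits, which both rings share, had more than 2.1-fold lower values in persister cells. The shared subunits LSM5 (30 to 17.3 FPKM) and LSM6 (16.9 to 11.4 FPKM) were lower as well. LSM7, also shared and the LSM gene of highest mean FPKM, was at 71.8 and 57.6 FPKM, and 0.04 higher on the equal-sum scale. The 2 subunits that tell the rings apart went in opposite directions. LSM8, the nuclear one, rose from 4.39 to 6.82 FPKM (difference 0.54), whereas LSM1, the cytoplasmic one, fell from 31.8 to 21.8 FPKM (difference -0.53). In the authors' deposited table the q-value was 1.20e-15 for LSM8 and 2.45e-06 for LSM1. LSM8 was the least abundant subunit of its ring in both groups, and it rose also on the equal-sum scale (0.94) and against genes at its level (0.54). The 1 added to each value weighs less on the equal-sum scale, so 0.94 is not directly comparable with 0.54. In the table a second row of LSM2 is listed at 0 and was not used. Exons of LSM3 and LSM1 overlap those of XPC and BAG4 on the other strand, and the libraries cannot separate such reads.

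LSM10 and LSM11 replace SmD1 and SmD2 in the U7 snRNP, which processes histone mRNA. LSM10 fell from 26.9 to 13.6 FPKM, whereas LSM11 was at 0.704 FPKM in parental and 0.71 in persister cells and was not called. LSM12 fell from 12 to 7.65 FPKM. The P-body proteins LSM14A (34.5 and 30.3 FPKM) and LSM14B (22.2 and 18.3 FPKM) were called lower by small amounts, and both lay above 0 on the equal-sum scale.

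The upstream stretch of LSM8 (chr7:118183914-118184031, plus strand) is given because it held the ETS element of the core genes while LSM8 moved the opposite way.
LSM8: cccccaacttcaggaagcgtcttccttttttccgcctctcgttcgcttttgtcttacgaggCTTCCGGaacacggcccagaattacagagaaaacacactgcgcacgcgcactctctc
Its match starts 189 bases before the start site. Of 10 LSM promoters with an entry, 2 (20%) held the element, near the 17.6% of tested genes. They were those of LSM5 and LSM8, 1 of them lower and 1 higher in persister cells.

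The PRPF genes encode proteins of several stages of splicing, and as a group they were near no difference. Of 13, 5 were called lower, 2 higher and 6 were not called, and 38.5% lower is close to the 39% of all tested genes. In the decile of mean FPKM from 15.2 to 23.1, 48.2% of all genes were called lower. The class medians were 16.2 FPKM in parental and 16.8 in persister cells. PRPF19, the ubiquitin ligase that gives the PRPF19 complex its name and the most abundant of the class, was at 112 FPKM in parental and 85 in persister cells (difference -0.39). PRPF8, the large scaffold at the catalytic centre, stood at 49.7 and 43 FPKM, and was 0.15 higher on the equal-sum scale. PRPF6, which bridges U5 with U4/U6, was at 61.1 and 67.4 FPKM, with q = 0.0542 in the authors' deposited table. PRPF4, a U4/U6 protein, fell from 15.6 to 9.76 FPKM (difference -0.62). Its partners PRPF3 (21.2 and 20.9 FPKM) and PRPF31 (28.7 and 29.4 FPKM) were not called. PRPF4B, a kinase, was at 16.2 and 16.8 FPKM and was not called.

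Factors associated with U1 made up both of the higher calls. PRPF39 rose from 12.8 to 16.7 FPKM and PRPF40B from 4.07 to 4.82, with q-values of 0.00207 and 0.0455 in the authors' deposited table. PRPF38A went from 13.2 to 10 FPKM, and its relative PRPF38B was at 15.8 and 16.1. PRPF18, which acts in the second step of splicing, was at 8.43 and 7.9 FPKM and was not called. Exons of PRPF39 overlap FKBP3 on the opposite strand, and those of PRPF40B overlap FMNL3.

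PRPF6 (chr20:63980882-63981131, plus strand) is shown as a second gene with the ETS element on both strands and no call.
PRPF6: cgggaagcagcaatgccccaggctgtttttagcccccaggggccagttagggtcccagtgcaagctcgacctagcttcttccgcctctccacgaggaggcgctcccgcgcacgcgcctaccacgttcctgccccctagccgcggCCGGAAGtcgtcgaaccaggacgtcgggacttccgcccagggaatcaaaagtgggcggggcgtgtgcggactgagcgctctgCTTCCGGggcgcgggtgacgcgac
The matches start 106 and 24 bases before the start site. Of 9 PRPF promoters with an entry, 2 (22.2%) held the element, beside 17.6% of tested genes.

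SR proteins were mixed. Among 11 tested, 5 were called lower, 1 higher and 5 were not called, and 45.5% lower is near the 39% of all tested genes. It is below the 68.8% of genes in the top 10% by level, which starts at a mean of 43.4 FPKM. The class medians were 65.9 FPKM in parental and 51.3 in persister cells. SRSF7, which also acts in mRNA export and polyadenylation, fell from 65.9 FPKM in parental to 33.5 in persister cells (difference -0.96). SRSF1, the founding member of the family, was at 84.6 and 51.3 FPKM (-0.71), and SRSF9 at 170 and 106 (-0.67). SRSF3, the smallest SR protein, was at 84 and 54 FPKM (-0.63). SRSF10, known to act as a splicing repressor when it loses its phosphates, was at 42.6 and 27.9 FPKM (-0.59), and its second row is listed at 0 and was not used. All 5 stayed below 0 on the equal-sum scale and below genes of their own level. Of the 31-base stretches of SRSF1, 56.3% occur in another annotated entry, so reads could be split between both.

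SRSF2, the most abundant SR gene, had values of 212 and 135 FPKM, a difference of -0.64 like that of the called genes, yet q = 0.372 in the authors' deposited table. Exons of SRSF2 overlap MFSD11 on the opposite strand. SRSF5 was at 108 and 105 FPKM and SRSF6 at 38.3 and 39.4, and neither was called. SRSF4 (22.5 and 20.8 FPKM) and SRSF8 (9.58 and 8.54 FPKM) were not called either. SRSF11 rose from 51 to 71 FPKM (difference 0.47), with q = 1.67e-09 in the authors' deposited table. SRSF12 was at 0.0222 and 0.0496 FPKM and was not tested.

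**Figure D4:**
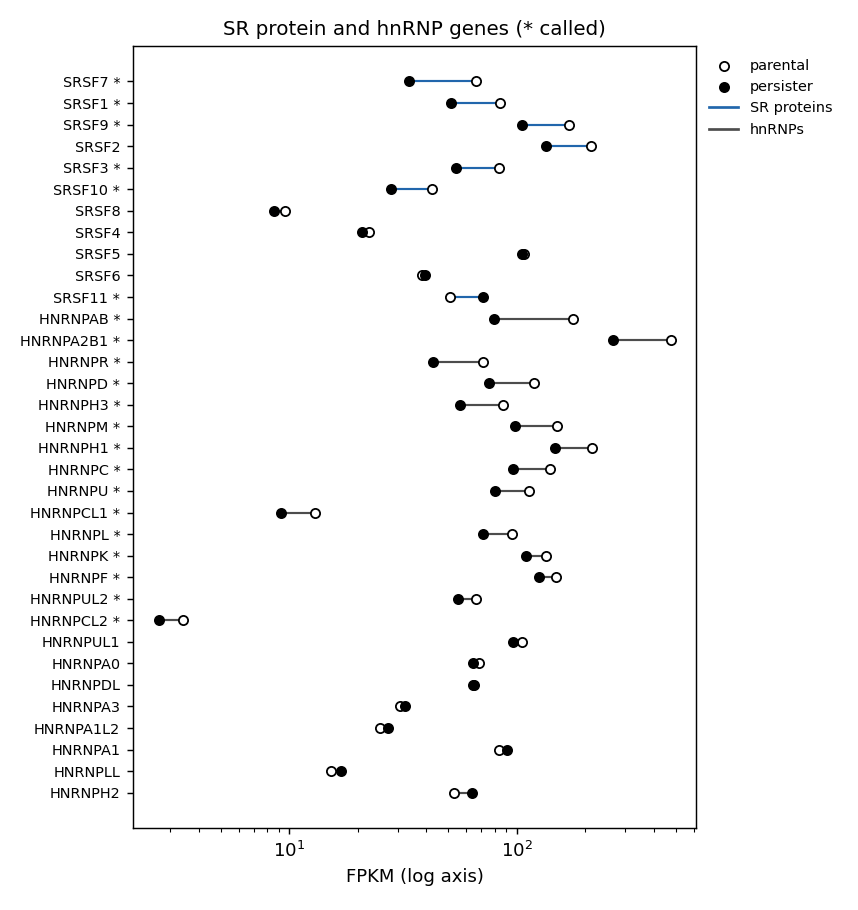
FPKM (log axis) of the SR protein and hnRNP genes, 1 gene per line, with open points for parental and filled points for persister cells and an asterisk where the authors' deposited table made a call. SRSF12, at 0.0222 and 0.0496 FPKM, is left out, and HNRNPH2 has no estimate. Falls are longest for SRSF7, HNRNPAB and HNRNPA2B1, and SRSF11 is the called gene whose filled point lies to the right.

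The hnRNPs were the most abundant class, with a summed FPKM of 2457 in parental and 1769 in persister cells. Of 22 tested, 15 were called lower, none was called higher and 7 were not called. These 68.2% lower exceed the 39% of all tested genes, but not the 68.8% of genes in the top 10% by level. The median moved from -0.36 as deposited to -0.03 both on the equal-sum scale and against genes at the same level. HNRNPA2B1, which packages transcripts and sorts RNA for transport, had the highest level of all members, at 476 FPKM in parental and 266 in persister cells (difference -0.84). Exons of HNRNPA2B1 overlap CBX3 on the opposite strand. HNRNPAB, a related A/B-type protein, fell from 176 to 79.4 FPKM (difference -1.14), the deepest fall of the class. HNRNPR fell from 71.1 to 42.9 FPKM, and HNRNPD, which binds AU-rich elements of unstable mRNAs, from 119 to 75.2. The authors' deposited table lists q = 0 for these 4 genes. They lay between -0.79 and -0.31 on the equal-sum scale.

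A second group of hnRNPs was lower by smaller amounts, between -0.63 and -0.26. HNRNPM went from 151 to 98.2 FPKM, HNRNPC, which binds uridine tracts, from 140 to 96.1, and HNRNPU, a nuclear scaffold protein, from 113 to 80.5. HNRNPH1, a binder of G-rich RNA, was at 215 and 148 FPKM (-0.54), and HNRNPH3 at 87.3 and 56.2 (-0.63). HNRNPL, a binder of CA repeats, was at 95.8 and 71.1 FPKM (-0.43). HNRNPK (135 and 110 FPKM) and HNRNPF (149 and 125 FPKM) were called lower, but lay at 0.06 and 0.10 on the equal-sum scale. HNRNPUL2 was at 66.2 and 55.2 FPKM in a row that also carries transcripts of BSCL2.

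Close relatives had unlike values in 2 of the pairs examined, and the difference between relatives was not tested. HNRNPA1, the partner of HNRNPA2B1 in the A/B family, was at 83.4 FPKM in parental and 90.6 in persister cells (difference 0.12) and was not called. HNRNPLL, the paralog of HNRNPL, was at 15.2 and 16.9 FPKM and was not called. For HNRNPH1 and its X-linked relative HNRNPH2 no comparison is possible, since HNRNPH2 (53.2 and 63.3 FPKM) has its fold and q-value set to 1 in the authors' deposited table, in a row that also carries transcripts of RPL36A. HNRNPA3 (30.7 and 32.2 FPKM), HNRNPA0 (68.2 and 64.1), HNRNPDL (65 and 64.2) and HNRNPUL1 (105 and 96) were not called. The copies HNRNPCL1 (13 and 9.16 FPKM) and HNRNPCL2 (3.4 and 2.66 FPKM) were called lower, and HNRNPA1L2 (25 and 27.3 FPKM) was not called. These 3 share 74.4%, 67.6% and 76.4% of their 31-base stretches with other genes. HNRNPCL1 shares most with HNRNPCL2 (59%), HNRNPCL2 with HNRNPCL1 (56.9%) and HNRNPA1L2 with HNRNPA1 (59.2%), so reads could be split between them.

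A different element was frequent in the hnRNP promoters. CCAAT, the box bound by NF-Y, was found on either strand (ATTGG is its reverse complement) in the 250 bases upstream of 18 of 22 hnRNP genes (81.8%), against 6 of 9 PRPF genes, 5 of 10 LSM genes, 4 of 10 core snRNP genes, 1 of 7 SF3A and SF3B genes, 2 of 11 SR genes and 41% of tested genes. The ETS element stood in 3 of 22 hnRNP and 2 of 11 SR promoters, beside 17.6% of tested genes. Capitals mark CCAAT in HNRNPAB, which fell deeply (chr5:178204283-178204506, plus strand), in HNRNPU, which fell to an intermediate degree (chr1:244864544-244864793, minus strand), and in HNRNPA0, which was not called (chr5:137754364-137754613, minus strand).
HNRNPAB: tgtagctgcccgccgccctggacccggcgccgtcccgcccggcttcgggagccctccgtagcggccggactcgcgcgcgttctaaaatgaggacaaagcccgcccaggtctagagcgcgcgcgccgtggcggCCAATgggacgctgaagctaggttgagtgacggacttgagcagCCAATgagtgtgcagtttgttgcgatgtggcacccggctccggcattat
HNRNPU: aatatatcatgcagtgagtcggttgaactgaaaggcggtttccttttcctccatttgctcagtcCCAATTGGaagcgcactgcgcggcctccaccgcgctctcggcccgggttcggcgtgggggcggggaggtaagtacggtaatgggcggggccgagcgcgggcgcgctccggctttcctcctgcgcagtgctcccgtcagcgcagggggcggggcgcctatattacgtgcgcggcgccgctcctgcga
HNRNPA0: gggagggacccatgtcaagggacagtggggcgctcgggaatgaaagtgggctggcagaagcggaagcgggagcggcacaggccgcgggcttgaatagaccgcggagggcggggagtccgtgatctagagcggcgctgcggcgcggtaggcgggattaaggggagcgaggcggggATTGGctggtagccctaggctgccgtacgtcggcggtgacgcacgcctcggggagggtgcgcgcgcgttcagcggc
HNRNPAB has matches starting 118 and 75 bases before the start site. In HNRNPU a sense and an antisense match overlap, starting 186 and 183 bases before it, and in HNRNPA0 the match starts at 76 bases. Among members called lower 25 of 45 held CCAAT, and among those higher or not called 10 of 22. The other elements searched on both strands were the E-box CACGTG, the Sp element GGGCGG, E2F elements and that of NRF1. The E-box was found in 10.1% of members and 11.1% of tested genes, with 6 of 22 hnRNP promoters and none of 10 core snRNP promoters. The Sp element was found in 60.9% of members and 73% of tested genes. E2F elements stood in 5.8% of members and 3.64% of tested genes, and that of NRF1 in 1.45% and 2.17%.

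Core snRNP proteins against SR proteins and hnRNPs was the comparison of interest within the set. All 11 core genes were called lower, against 20 of the 33 tested SR and hnRNP genes, of which 1 was higher and 12 were not called. The share of lower calls was thus 100% in the core and 60.6% in the SR and hnRNP genes, beside 39% of all tested genes, and 59.5% and 68.8% of genes in the upper 2 deciles of mean FPKM. The core values ran from -1.34 to -0.26, and those of the SR and hnRNP genes from -1.14 to 0.47, so the groups overlapped over most of their range. The medians were -0.75 for the core and -0.43 for the SR and hnRNP genes together. The summed FPKM of the core went from 879 to 510, a persister to parental ratio of 0.58, and that of the SR and hnRNP genes from 3345 to 2423, a ratio of 0.72. On the equal-sum scale the medians were -0.41 and -0.07, and against genes of the same level -0.45 and -0.09. The core median was the lower one on each of these scales, but with 1 value per gene and condition its distance from the other median has no error and was not tested.

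Length and level moved with these differences. Core snRNP transcripts were shorter, with a median of 1081 bases against 2396 for SR and hnRNP genes. Across 77 members with a known length, longer transcripts had higher differences (Spearman's rho 0.36), as they did across 9976 genes (rho 0.24), and the genes share the same libraries. Relative to genes in their own decile of length, the medians were -0.63 for the core and -0.31 for the SR and hnRNP genes. Among SR and hnRNP genes, those with a higher parental FPKM had lower differences (rho -0.55 over 33 genes), a measure that shares the parental value with the difference itself. Over all members the correlation with mean FPKM was -0.26 (78 genes), close to -0.27 over 10160 genes. The part of RNA composition in this was not tested.

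Other splicing genes are given by list, and their counts are to be read beside the 39% of all tested genes called lower and the 30.9% called higher. Their equal-sum medians are to be read beside the 0.22 of expressed genes on that scale. Of 18 genes that assemble and import snRNPs, which include the SMN complex and the methylosome, 14 were called lower and 1 higher. Their median was -0.33 as deposited and 0.01 on the equal-sum scale. WDR77, a methylosome subunit, fell from 18.1 to 9.01 FPKM, and GEMIN2, the SMN partner that holds the Sm proteins, from 13.9 to 7.67. CLNS1A, the chaperone that first takes up Sm proteins, was at 20 and 23 FPKM and was the higher one. Of 24 other snRNP proteins, 16 were lower and 5 higher (median -0.29, and 0.06 on the equal-sum scale). PPIH, a cyclophilin of the U4/U6 particle, fell from 26.3 to 13.4 FPKM, and SNRNP25 of the minor spliceosome from 42.8 to 23.8. LUC7L3, a U1-associated protein, rose from 116 to 200 FPKM. RNPC3, of the minor spliceosome, was at 6.2 and 41.8 FPKM, but its row also carries a transcript of AMY2B.

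Later-acting factors and regulators had calls in both directions, apart from the exon junction complex. Of 20 splicing helicases and PRPF19 complex genes, 6 were lower and 6 higher (median -0.07, and 0.28 on the equal-sum scale). DHX15, which takes spent spliceosomes apart, fell from 93.6 to 51.4 FPKM, and CRNKL1 from 26.9 to 15. SLU7, a factor of the second step, rose from 10.4 to 17.3 FPKM, and SYF2 from 13.2 to 20.1. Of 7 tested genes of the exon junction complex, 5 were lower and none higher (median -0.20, and 0.15 on the equal-sum scale), among them MAGOHB (10.2 to 3.51 FPKM) and PYM1 (27 to 19.4 FPKM). Of 32 other splicing regulators, 17 were lower and 6 higher (median -0.20, and 0.13 on the equal-sum scale). SFPQ fell from 114 to 74.4 FPKM and RALY from 14.3 to 9.07, while RBFOX2 rose from 8.84 to 20.4 and MBNL2 from 12.6 to 18.9.

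The kinases of SR proteins and SR-like genes held more higher than lower calls. Of 17 tested, 7 were called higher (41.2%, against 30.9% of all tested genes), 4 lower and 6 were not called, with a median of 0.09 and of 0.45 on the equal-sum scale. CLK1, a nuclear kinase that releases SR proteins from speckles, rose from 14.5 to 42 FPKM (difference 1.47), and its relative CLK4 from 4.58 to 11.4 (1.15). SRPK1, the kinase that phosphorylates SR proteins in the cytoplasm, fell from 24.4 to 11.4 FPKM (-1.04). TRA2B, an SR-like activator of exons, fell from 46.4 to 20 FPKM (-1.17). The authors' deposited table lists q = 0 for all 4. Both kinase families thus moved in opposite directions at these 3 genes, though SRPK2 was called higher (16.7 and 21.4 FPKM).

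**Figure D5:**
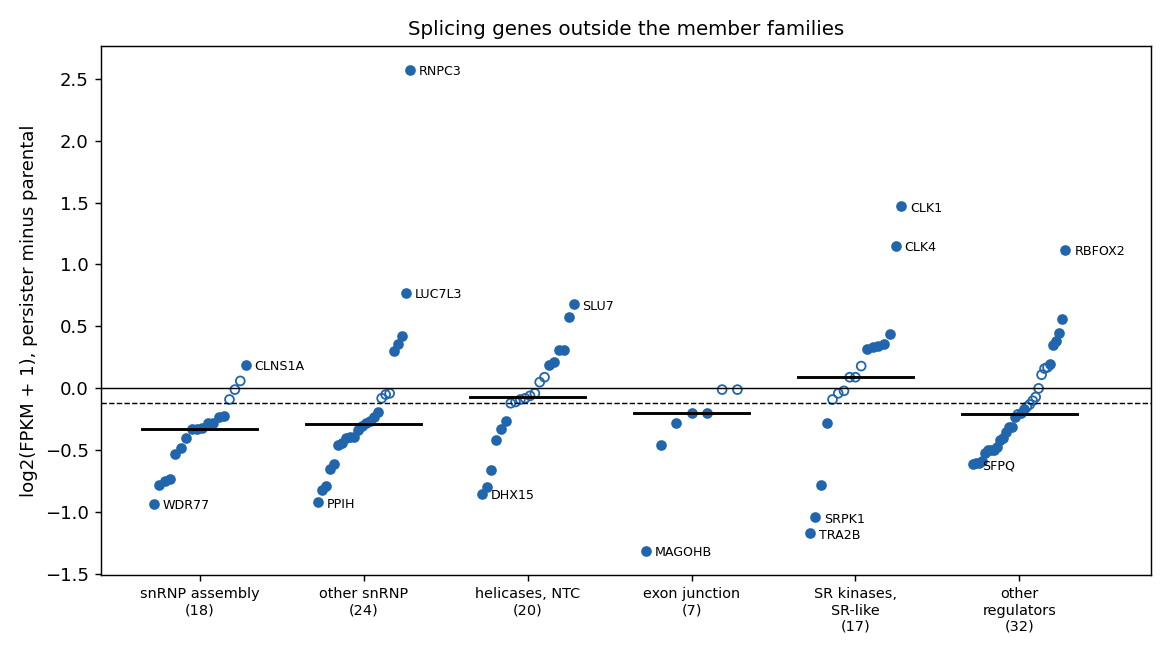
Difference in log2(FPKM + 1), persister minus parental, of tested splicing genes outside the member families, 1 point per gene, filled where called in the authors' deposited table, by list (NTC, PRPF19 complex). Thick bars are list medians, the solid line is 0 and the dashed line is the median of the 10160 tested genes with at least 1 FPKM in both groups, at -0.12. Only SR kinases and SR-like genes have a median above 0 as deposited, at 0.09. On the equal-sum scale all 6 list medians lie above 0, but the median of the 10160 genes is itself 0.22 there. The list medians above 0.22 are those of helicases and PRPF19 complex (0.28) and of SR kinases and SR-like genes (0.45). RNPC3 and CLK1 have the largest rises.

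The labelled cell type was checked against markers. Of 11 luminal markers, 10 were expressed, among them KRT19 at 841 FPKM in parental and 623 in persister cells, and ERBB2 is listed at 0 in both groups although the line carries its amplification. Of 8 fibroblast, 8 immune and 6 endothelial markers, 7, 6 and 6 were under 1 FPKM in both groups. The exceptions were COL1A1 (13.4 and 8.73 FPKM), LYZ (4.61 and 4.06) and CD68 (2.3 and 1.97). Summed FPKM was 13.5 and 8.75 for the fibroblast list, 7.26 and 6.17 for the immune list and 1.19 and 0.144 for the endothelial list. In bulk RNA, fewer cells of a kind and less RNA per cell cannot be told apart.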

How the data were processed

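Polyadenylated RNA of 2 parental and 3 persister BT474 cultures was sequenced, per the labels' protocols. Cuffdiff 2.0.2 and Cufflinks, TopHat2 2.0.6, CASAVA 1.8 and the hg18 build are listed in the submitters' processing notes, with settings not given in the sources used here. A single table deposited by the authors has per gene 1 FPKM value for each group, 1 q-value and 1 fold change, per the file headers. Without counts or single libraries in it, depth and replicate spread cannot be given, and the planned use of a model on single libraries fell away. In 145 of 18803 rows the deposited fold and q-value are set to 1 although the FPKM values differ (tolerance 0.6%), and these have no estimate. The authors deposited a q-value of 0 in 20 member rows.

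A gene was called where the authors' deposited q-value was under 0.05, among genes with a q-value below 1. Differences are log2(FPKM + 1), and the pseudocount of 1 understates changes at low values. Of 269 symbols on several rows the row of highest mean FPKM was used, and of 26 symbols turned into spreadsheet dates 25 were restored from transcript identifiers. Transcript lengths and shared 31-base stretches came from GENCODE 29, whose build differs from hg18. Besides the overlaps named above, exons of SNRPD3, SNRPF, SF3A2, PRPF4, PRPF31, SRSF9, HNRNPH3 and HNRNPUL1 overlap a coding gene on the other strand. Reads of such pairs cannot be separated in these libraries. Promoter windows (250 bases upstream) came from RefSeq, GRCh38.p14, and 48 of 69 windows held at least 20 bases of an exon of the same gene. Python 3.11.15, pandas 2.3.3, scipy 1.17.1 and matplotlib 3.10.9 were used, and the counting was tested on simulated data.

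Members and lists were chosen with earlier results of these data known. Genes named with values were, per class, the 2 of highest mean FPKM, up to 4 called with the largest rise and 4 with the largest fall, untested members and fixed pairs of relatives, and per other list up to 2 called in each direction. The other members named, SRPK2 and SNRNP70 were chosen after their values were seen. A member that is counted is not reported here by name. Alternatives were another pseudocount (0.1), a minimum of 1 FPKM in both groups, q-values under 0.01, a difference of at least 0.5, all rows of a symbol, and differences relative to genes with at least 1 FPKM, to deciles of transcript length or mean FPKM, or after scaling to equal sums.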

Additional observations from a re-analysis of the deposited data

How the results depend on the processing

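Of 273 values recomputed under alternative settings, 220 stayed within a factor of 1.5 of the value as reported and 53 did not, and the 3 class medians compared kept their sign. Part of the 220 could not have moved, so this count is no measure of stability. No paired analysis was possible because the table holds no values per library, and for the same reason no library could be left out. The pseudocount of 0.1, all rows of a symbol, the median of expressed genes and the deciles of transcript length moved no value past that factor. Under the pseudocount the shares called were fixed, since a call uses only the q-value and the sign of the difference. Extra rows of members are listed at 0 and untested, so that setting was fixed too. Class medians did not use the cut-offs on q-value or difference, and were fixed under those.

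With a minimum of 1 FPKM in both groups, 2726 genes of the whole table were called higher. With a q-value under 0.01, the share called higher was 0% for SF3A and SF3B and for snRNP assembly, 7.69% for PRPF and 3.85% for all members. With a difference of at least 0.5, 2648 genes were lower and 1600 higher. Shares called lower were then 12.5% of SF3A and SF3B, 7.69% of PRPF, 36.4% of hnRNPs, 42.3% of all members, 20.8% of other snRNP proteins, 15% of helicases and PRPF19 complex, 14.3% of the exon junction complex, 27.8% of snRNP assembly and 21.9% of other regulators. Shares called higher were 0% of SF3A and SF3B, PRPF, SR proteins and snRNP assembly, 1.28% of all members, 8.33% of other snRNP proteins, 10% of helicases and PRPF19 complex, 11.8% of SR kinases and SR-like genes and 6.25% of other regulators.

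On the rescaled differences a call kept its q-value and took its direction from the rescaled value. Relative to the decile of mean FPKM, shares called higher were 25% of U1 and U2 proteins, 23.1% of LSM, 13.6% of hnRNPs and 16.7% of all members. PRPF was then 23.1% lower and 30.8% higher, and the exon junction complex 28.6% lower and 42.9% higher. Median differences were -0.45 for the core snRNP proteins, -0.20 for SR proteins and -0.03 for hnRNPs. With FPKM scaled to equal sums, an alternative chosen after seeing the data, shares called higher were 25% of U1 and U2 proteins, 25% of SF3A and SF3B, 30.8% of LSM, 18.2% of hnRNPs, 20.5% of all members and 34.4% of other regulators. PRPF was again 23.1% lower and 30.8% higher, so its balance turned on both scales. Other snRNP proteins were 41.7% lower and 45.8% higher, the exon junction complex 28.6% and 42.9%, and snRNP assembly 50% and 33.3%. Median differences were -0.41 for the core, -0.25 for SR proteins and -0.03 for hnRNPs. Of the 51 members called lower, 40 lay below 0 on the equal-sum scale and 11 did not, and the 5 called higher all lay above 0. By construction, the decile scale subtracts the same median from all genes of a level. The equal-sum scale rescales each group before the 1 is added, so its shift differs between genes. SNRPA1, for example, went from -1.34 to -1.07 and LSM8 from 0.54 to 0.94.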
